A study of Mus musculus with 8 samples.

Results

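The genes described here are 46 mouse genes that drive entry into mitosis, build the spindle, guard chromosome separation and divide the cell, out of 21859 gene IDs in the count table. They were taken by name from a list of mitotic entry, spindle and cytokinesis genes without structural kinetochore genes, and all 46 matched 1 Ensembl ID each. The counts come from RNA sequencing of 8 cultures of PER-M60, which the labels give as a mouse line of leukaemia cells. Control medium was given to 4 cultures, and the other 4 received medium conditioned by osteoclasts, which are bone-resorbing cells. The comparison asks what the conditioned medium changes in the transcriptome of the leukaemia cells. The labels name no genotype, no time in culture and no other agent. Since all cultures are of 1 line, the spread between them measures culture and handling and not differences between leukaemias.

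Cells enter mitosis when cyclin B with its kinase Cdk1 is switched on by Cdc25 phosphatases. Polo and Aurora kinases, kinesin motors and microtubule-binding proteins then assemble the spindle, and the spindle checkpoint holds back the anaphase-promoting complex (APC/C), a ubiquitin ligase, until all chromosomes are attached. The APC/C then marks cyclin B and securin for destruction, sister chromatids part, and the cell is cleaved between them. Transcripts of most of these genes are low in G1 and rise towards mitosis, under the MuvB complex with B-Myb and FoxM1, which contacts promoters at the cell cycle genes homology region. Neighbouring CCAAT boxes are bound by a different factor, NF-Y.

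Most of the mitotic genes were lower in osteoclast-conditioned medium, each by a small amount. Of the 46 genes, 45 passed the filter on low counts and were tested, and 37 of the 45 (82.2%) fell, with a median log2 fold change of -0.16 over the tested members, equal to a level lower by 10.8%. Over all 10729 genes tested, 30.5% were called, 14.8% lower and 15.7% higher, by edgeR's quasi-likelihood test at a Benjamini-Hochberg adjusted p under 0.05, and the median log2 fold change was -0.0087. Of all calls, 51.6% were in the higher direction. With scaling by total counts only that share was 40.7%, and 40 members were called lower in place of 37. No member was called higher: edgeR called 0 higher, also at an unadjusted p under 0.05, while DESeq2 gave 0 both ways and limma-voom 0 adjusted and 1 unadjusted. The groups of 4 cultures did not overlap in 32 members, all lower in osteoclast-conditioned medium. Over all tested genes, 28.2% showed no overlap, 12.9% lower and 15.2% higher. The log2 fold change was below 0 in 44 of the 45 members and in 52.2% of all tested genes. The changes were small: 4 members (Cks2, Pttg1, Cdc25c and Ccnb2) were lower by at least 1.2-fold, and a test against a change of 1.2-fold called 0 of the 45 by edgeR (1 at an unadjusted p under 0.05) and 0.615% of all genes as lower and 1.5% as higher. In bulk RNA, fewer cells in G2 and mitosis and less of each transcript per cell cannot be told apart.

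**Figure D1:**
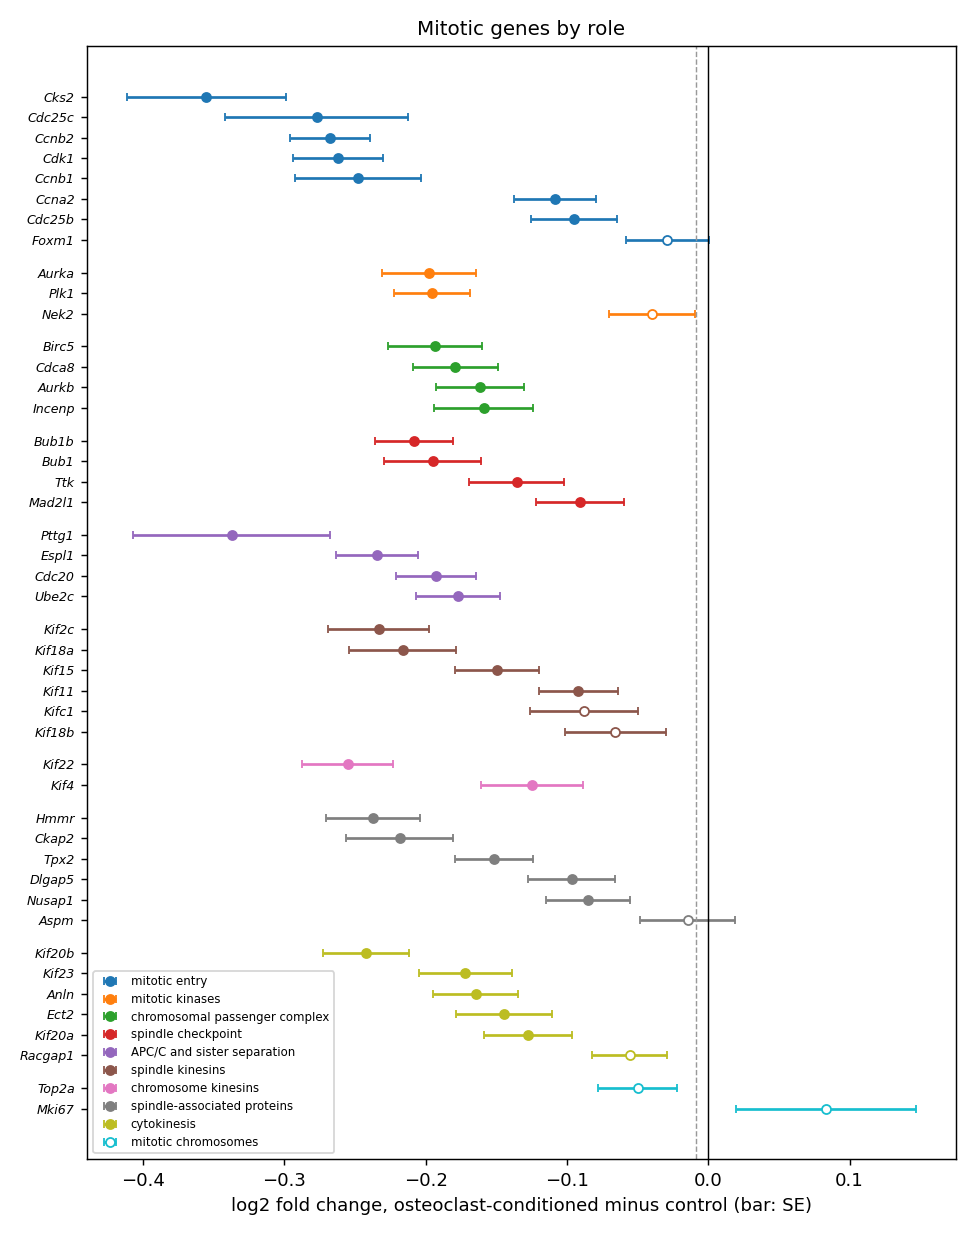
Log2 fold change (osteoclast-conditioned minus control, x axis) of the 45 tested members, grouped and coloured by role, with bars of 1 standard error; filled points had an adjusted p under 0.05, and the dashed line is the median of all tested genes. All points but that of Mki67 lie below 0, from -0.36 for Cks2 to -0.01 for Aspm.

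The depth behind these values was similar in all cultures. Total counts ran from 15391754 to 21637966 per culture, and 3 counts, taken as the detection floor, equalled 0.138 to 0.194 normalised CPM (counts relative to library size after TMM scaling). Tested members had at least 2262 counts over all cultures (Pttg1), and together the members took 1.00 to 1.04% of the counts in control medium and 0.931 to 0.945% in osteoclast-conditioned medium. The mitochondrial share of counts was 0.903 to 1.16% in control medium and 1.16 to 1.44% in osteoclast-conditioned medium, highest in osteoclast-conditioned replicate 4, and its part in the result was not tested. Without that culture, 35 members were called lower, with a median log2 fold change of -0.17. Over all genes, that fit called 1525 of 10785 lower and 1670 higher. All 10 markers of the B lineage were present in both media, with a summed level of 4532 to 4563 normalised CPM in control and 4775 to 4808 in osteoclast-conditioned medium. Of those 10, 2 were called lower (20%) and 6 higher (60%), against 14.8% and 15.7% of all tested genes. The called genes with the largest changes were Cd22 (log2 fold change -0.44), Blnk (0.29) and Vpreb1 (0.15). The osteoclast list summed to 128 to 134 and 139 to 144 normalised CPM, almost all of it from Nfatc1 (called higher, log2 fold change 0.15), Itgb3 (called lower, -0.25) and Acp5 (not called), and Ocstamp and Dcstamp were at 0 in every culture. The 7 myeloid markers summed to 4.06 to 5.33 normalised CPM in control and 5.44 to 7.07 in osteoclast-conditioned medium, without overlap, and Cd14 and Itgam were at 0 in every culture. Lyz2, the myeloid lysozyme and the only 1 of the 7 that passed the filter, was called higher (log2 fold change 0.40, edgeR adjusted p = 0.0119), and the part of the myeloid, osteoclast and B lineage lists in the result was not tested. Of 6 T cell markers, Trac matched no ID, and the other 5 summed to at most 0.175 normalised CPM (Cd3g and Cd8a at 0). The 7 stromal markers summed to 10.9 to 12.8 normalised CPM in control and 9.22 to 11.6 in osteoclast-conditioned medium (Col1a2 and Pdgfra at 0). Almost all of this came from Runx2 (not called), at 10.6 to 12.6 normalised CPM in control and 9.16 to 11.4 in osteoclast-conditioned medium.

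Promoter sequences are shown for 10 members, because genes of this kind are known for a shared promoter layout. RefSeq windows on GRCm38.p6 (250 bases before the annotated start of transcription and 50 from it) were found for 38 of the 46 members. Of the 38 starts, 35 lie in a GENCODE transcript of the same gene, and those of Aurka, Kif2c and Mad2l1 do not. The members without a window were Tpx2, Cdc25c, Aurkb, Incenp, Dlgap5, Ccna2, Foxm1 and Kif20a. The cell cycle genes homology region was searched as TTTGAA or TTCGAA and the CCAAT box as CCAAT, each on both strands (so also as TTCAAA and as ATTGG); matches that share letters were counted separately. Each sequence below runs 5′ to 3′ on the gene's strand, with 120 bases before the start and 30 bases from it, and the capitals mark these motifs.
Cks2: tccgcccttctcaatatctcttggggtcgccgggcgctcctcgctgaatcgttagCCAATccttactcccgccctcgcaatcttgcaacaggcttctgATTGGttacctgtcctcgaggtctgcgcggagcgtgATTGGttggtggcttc
Aurka: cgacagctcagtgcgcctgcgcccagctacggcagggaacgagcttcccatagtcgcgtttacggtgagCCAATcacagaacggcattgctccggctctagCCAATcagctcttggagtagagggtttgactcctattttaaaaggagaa
Birc5: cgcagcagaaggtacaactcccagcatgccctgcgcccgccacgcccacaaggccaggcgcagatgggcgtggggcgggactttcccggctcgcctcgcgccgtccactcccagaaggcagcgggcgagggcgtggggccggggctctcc
Bub1b: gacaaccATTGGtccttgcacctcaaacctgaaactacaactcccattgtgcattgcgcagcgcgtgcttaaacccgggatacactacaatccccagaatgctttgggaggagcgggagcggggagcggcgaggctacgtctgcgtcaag
Ccnb2: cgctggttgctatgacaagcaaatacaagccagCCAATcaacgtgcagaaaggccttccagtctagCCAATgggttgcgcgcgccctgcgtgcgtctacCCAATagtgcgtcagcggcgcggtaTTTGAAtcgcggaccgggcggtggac
Cdk1: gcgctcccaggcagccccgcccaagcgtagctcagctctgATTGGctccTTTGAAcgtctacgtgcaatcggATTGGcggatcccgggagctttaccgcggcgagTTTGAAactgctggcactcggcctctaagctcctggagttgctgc
Cdc20: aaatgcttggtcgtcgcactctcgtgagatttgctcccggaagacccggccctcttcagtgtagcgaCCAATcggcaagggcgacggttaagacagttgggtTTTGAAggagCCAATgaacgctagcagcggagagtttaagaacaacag
Hmmr: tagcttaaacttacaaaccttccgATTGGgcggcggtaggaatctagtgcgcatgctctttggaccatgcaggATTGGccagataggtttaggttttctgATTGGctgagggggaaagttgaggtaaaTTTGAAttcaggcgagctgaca
Top2a: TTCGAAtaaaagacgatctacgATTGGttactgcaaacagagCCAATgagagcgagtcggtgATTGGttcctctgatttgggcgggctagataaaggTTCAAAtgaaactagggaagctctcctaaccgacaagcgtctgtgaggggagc
Kif18b: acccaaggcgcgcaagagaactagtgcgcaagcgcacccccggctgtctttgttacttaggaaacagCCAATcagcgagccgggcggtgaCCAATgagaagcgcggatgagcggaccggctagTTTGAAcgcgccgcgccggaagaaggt
The first 4 genes have the largest called change in their role group, and the other 6 were chosen after their values were seen, to show 4 members that fell and 2 (Top2a and Kif18b) that were not called. The stretches are chr13:51645112-51645261 (plus strand) for Cks2, chr2:172370541-172370690 (minus strand) for Aurka, chr11:117849117-117849266 (plus strand) for Birc5, chr2:118598091-118598240 (plus strand) for Bub1b and chr9:70421525-70421674 (minus strand) for Ccnb2. Those of the others are chr10:69352883-69353032 (minus strand) for Cdk1, chr4:118437314-118437463 (minus strand) for Cdc20, chr11:40733408-40733557 (minus strand) for Hmmr, chr11:99024160-99024309 (minus strand) for Top2a and chr11:102925095-102925244 (minus strand) for Kif18b.

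The layout is visible in Ccnb2, where 3 CCAAT boxes begin 87, 54 and 21 bases before the start, 33 bases apart, and TTTGAA begins 4 bases after it, with the first transcribed base counted as 0. Cdk1 has ATTGG 80 and 48 bases before the start and TTTGAA 71 and 15 bases before it. In Hmmr, ATTGG occurs 96, 47 and 20 bases before the start and TTTGAA 8 bases after it. Birc5 has none of these letters in the stretch shown, and Cks2 has 3 CCAAT boxes and no homology region. In Aurka and Bub1b the nearest homology region begins 32 and 40 bases after the start, beyond the stretch shown. For Aurka, the RefSeq start used here lies outside the GENCODE span of the gene.

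Over the 38 windows of 300 bases, 30 (78.9%) held a homology region, against 14.3% of the 8547 tested genes with a window and 19.4% of all 27025 windows taken 1 per gene. A CCAAT box was in 29 members (76.3%, against 39.4% and 37.9%) and both motifs in 26 (68.4%, against 6.14% and 7.70%). In 27 members (71.1%) a homology region lay within 50 bases of the start, against 3.73% of the tested genes. The 29 tested members with a homology region had a median log2 fold change of -0.18 and ranged from -0.27 to 0.08, and the 8 members without it had a median of -0.20 and ranged from -0.36 to -0.04. Of the 8 without it 7 fell, and of the 29 with it 23 fell, where 14.8% of all tested genes were called lower. Mad2l1, whose whole window lies before its GENCODE span, is among the 8 without a homology region. Prc1, which has a homology region, was not tested. The difference between these groups was not tested. These matches describe letters in a window and not binding.

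**Figure D2:**
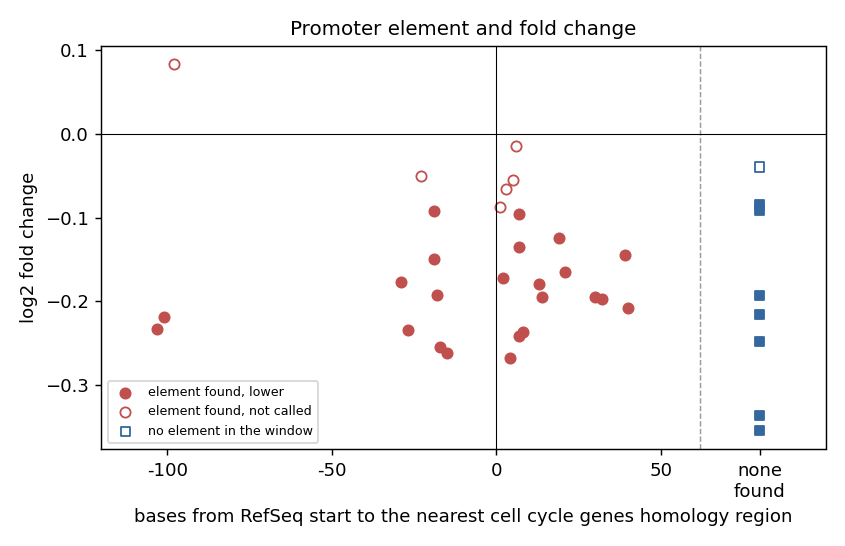
Log2 fold change (y axis) of the 37 tested members with a promoter window against the distance in bases from the RefSeq start to the first base of the nearest homology region (x axis); squares on the right have none in the window, and open symbols were not called. Both called and uncalled members lie mostly within 50 bases of the start.

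Of the 8 mitotic entry genes 7 fell, and the group's median log2 fold change of -0.26 was the lowest of the 10 role groups. Counts in the role groups are read against all tested genes, of which 14.8% were called lower and 12.9% were lower without overlap. Cks2, the small subunit that binds Cdk1 and helps it dock to phosphorylated substrates, had 33.6, 32.2, 35.9 and 32.8 normalised CPM in control replicates 1 to 4 and 25.8, 29.3, 24.4 and 25.7 in osteoclast-conditioned replicates 1 to 4. Every osteoclast-conditioned culture was below every control culture, and the log2 fold change was -0.36 (SE 0.06, edgeR adjusted p = 1.26e-05), the largest of all members. Cdc25c, a phosphatase that removes the inhibitory phosphates from Cdk1, had 27.7, 29.5, 26.6 and 24.7 against 23.8, 19.6, 22.6 and 23.6 normalised CPM in the same order (log2 fold change -0.28, SE 0.06, edgeR adjusted p = 0.00141). Its groups did not overlap, but control replicate 4 and osteoclast-conditioned replicate 1 were close.

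The cyclin B genes and their kinase fell by nearly the same amount. Ccnb2 had 168, 174, 169 and 171 normalised CPM in control medium and 142, 143, 143 and 139 in osteoclast-conditioned medium (log2 fold change -0.27, SE 0.03, edgeR adjusted p = 1.48e-08), the smallest p of all members. Cdk1 had 146, 146, 145 and 143 against 123, 124, 123 and 113 (log2 fold change -0.26, SE 0.03, edgeR adjusted p = 1.84e-07). Osteoclast-conditioned replicate 4 was the lowest culture for both genes and stood apart for Cdk1. Ccnb1, the main mitotic cyclin, had 299, 329.5, 276 and 288 against 257, 253, 253 and 243 normalised CPM (log2 fold change -0.25, SE 0.04, edgeR adjusted p = 0.000787), with a wider spread in control medium, where replicate 2 was highest. Cyclin A2 (Ccna2), which acts in S phase as well as in early mitosis, had a smaller change (414 to 450.5 against 382 to 409.7 normalised CPM, no overlap, log2 fold change -0.11). Cdc25b, the phosphatase that starts Cdk1 activation at the centrosome, fell by 0.10 on the log2 scale, with values of 173 to 186 and 166 to 177 normalised CPM that overlapped. Its edgeR adjusted p was 0.078 and 0.0812 without control replicates 1 and 4, and 0.0838 and 0.053 without osteoclast-conditioned replicates 1 and 2.

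Foxm1, the transcription factor that activates many of these genes, did not pass the test. It had 162, 162, 159 and 161 normalised CPM in control medium and 153, 154, 159 and 165 in osteoclast-conditioned medium (log2 fold change -0.03, SE 0.03, edgeR adjusted p = 0.494). The groups overlapped, and osteoclast-conditioned replicate 4 was the highest culture of all. An interval of 2 SE on either side of its log2 fold change ran from -0.09 to 0.03.

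Of the mitotic kinases, Plk1 and Aurka fell and Nek2 did not pass the test. Plk1, the polo kinase of centrosome maturation and spindle assembly, had 231, 228, 229 and 224 normalised CPM against 199, 198, 196 and 203 (log2 fold change -0.20, SE 0.03, edgeR adjusted p = 1.52e-06). Aurka, the Aurora kinase of centrosomes and spindle poles, had 109, 118, 112 and 112 against 96.9, 99.9, 101 and 95.3 (log2 fold change -0.20, SE 0.03, edgeR adjusted p = 2.96e-05). In both genes every control culture was above every osteoclast-conditioned culture. Nek2, a kinase that lets the paired centrosomes separate, had 151, 148, 143 and 147 against 146, 148, 139 and 139.9 normalised CPM, with groups that overlapped (log2 fold change -0.04, SE 0.03, edgeR adjusted p = 0.348).

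All 4 genes of the chromosomal passenger complex, which corrects faulty attachments at centromeres and later acts in cytokinesis, fell without overlap and by similar amounts (log2 fold change -0.19 to -0.16). Birc5, or survivin, which brings the complex to chromatin, had 118, 112, 120.3 and 121 normalised CPM against 100.5, 103, 102 and 107 (log2 fold change -0.19, SE 0.03, edgeR adjusted p = 4.01e-05). Cdca8, or borealin, had 153, 156, 162 and 159 against 139, 144, 138 and 136 (log2 fold change -0.18, SE 0.03, edgeR adjusted p = 2.91e-05). The kinase of the complex, Aurkb, had 161 ± 5.28 normalised CPM in control and 144 ± 4.47 in osteoclast-conditioned medium, and its scaffold Incenp 321 ± 18.9 and 287 ± 8.93 (SD, n = 4).

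The spindle checkpoint genes also fell, 4 of 4. Bub1b, whose product BubR1 is part of the complex that inhibits the APC/C, had 273, 283, 277 and 267 normalised CPM in control medium and 240.3, 242, 232 and 238 in osteoclast-conditioned medium (log2 fold change -0.21, SE 0.03, edgeR adjusted p = 7.83e-07). Bub1, the kinase that recruits checkpoint proteins to kinetochores, had 151, 155, 143 and 136 against 129, 130.2, 127 and 126 (log2 fold change -0.20, SE 0.03, edgeR adjusted p = 6.45e-05), with control replicate 4 nearest to the other group. Ttk, the kinase Mps1 that starts checkpoint signalling, fell by 0.14 on the log2 scale without overlap (81.4 to 83.8 against 74.0 to 76.2 normalised CPM). Mad2l1, which encodes the checkpoint protein Mad2, fell by 0.09 with overlapping groups (150.0 to 159 and 139 to 151 normalised CPM). Its edgeR adjusted p was 0.0588 and 0.0692 without control replicates 2 and 3, and 0.0556, 0.129 and 0.0587 without osteoclast-conditioned replicates 1, 3 and 4.

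Genes of the APC/C step and of sister separation fell in 4 of 4 cases, with a median log2 fold change of -0.21. Pttg1, or securin, the inhibitor of separase, had 18.8, 17.4, 17.7 and 16.5 normalised CPM against 13.2, 15.4, 13.0 and 14.2 (log2 fold change -0.34, SE 0.07, edgeR adjusted p = 0.000398), and it had the fewest counts of the tested members. Espl1, or separase, the protease that cuts cohesin, had 172, 168, 166 and 167 against 138, 142, 146 and 145 (log2 fold change -0.23, SE 0.03, edgeR adjusted p = 2.77e-07). The inhibitor and its protease were both lower, without overlap. Cdc20, the APC/C activator of metaphase, had 203 to 216 normalised CPM against 181 to 185, and Ube2c, the ubiquitin-conjugating enzyme of the APC/C, 167 to 178 against 149 to 154. In Ube2c, 22.8% of the exon length lies over exons of Tnnc2 on the opposite strand, and no use of strand in counting is given in the sources used here.

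**Figure D3:**
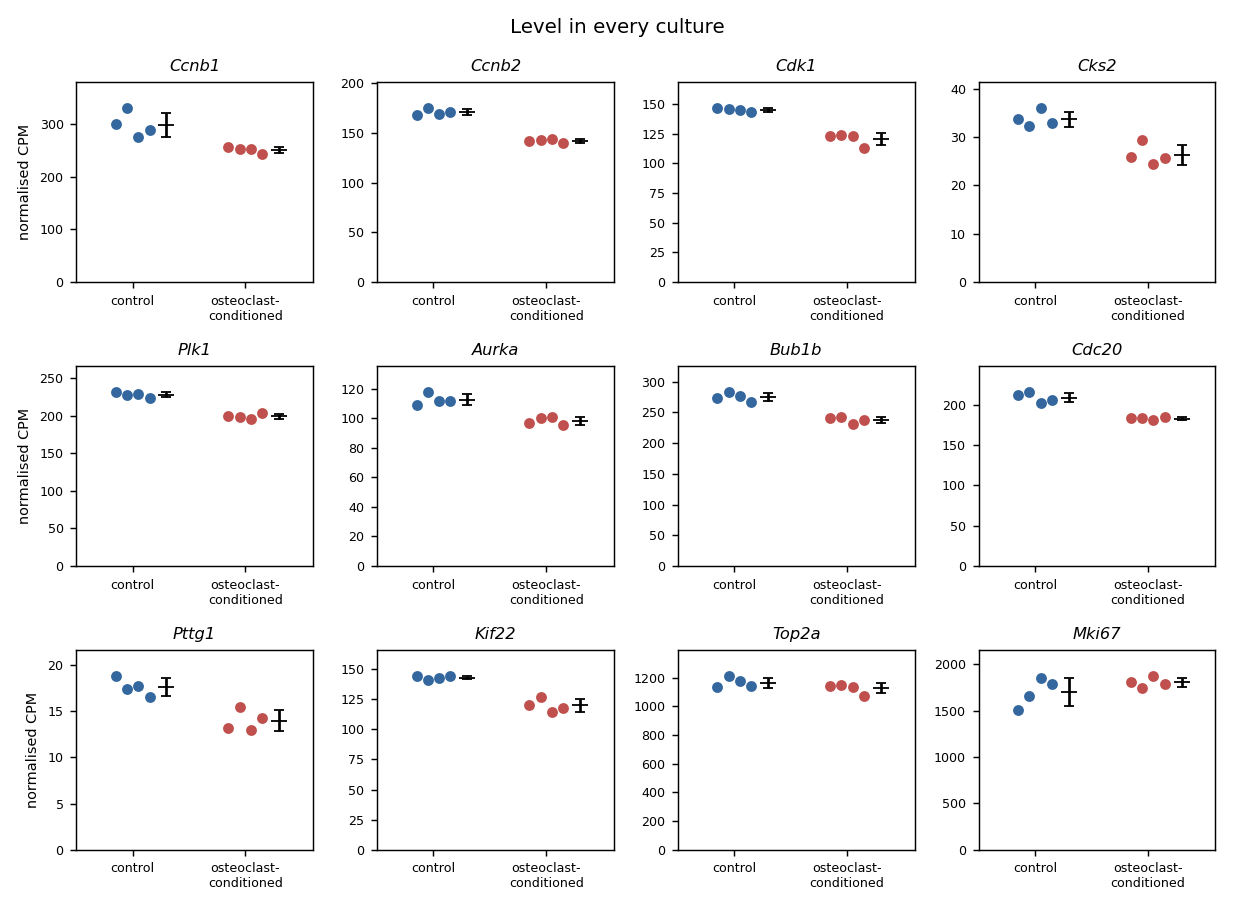
Normalised CPM (y axis, from 0) of 12 members in each of the 4 control and 4 osteoclast-conditioned cultures, with the mean and SD beside the points. In the first 10 panels all osteoclast-conditioned points lie below all control points, while Top2a and Mki67 overlap.

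Among the spindle kinesins 4 of 6 fell. Kif2c, or MCAK, which removes tubulin from microtubule ends at centromeres, had 97.7, 93.2, 97.7 and 99.4 normalised CPM against 83.9, 86.6, 81.1 and 78.1 (log2 fold change -0.23, SE 0.04, edgeR adjusted p = 8.56e-06). Kif18a, which dampens chromosome movements at the metaphase plate, had 61.2, 63.0, 61.0 and 61.3 against 53.7, 54.0, 53.2 and 51.4 (log2 fold change -0.22, SE 0.04, edgeR adjusted p = 5.17e-05). Neither gene's groups overlapped. Kif11, or Eg5, which pushes the spindle poles apart, fell by 0.09 on the log2 scale (408 to 442 against 384 to 398 normalised CPM). Kif15, which helps to keep them apart, fell by 0.15 (237 to 259.8 against 217 to 229). Kif18b, which acts on astral microtubules, had 104, 104, 116 and 106 against 106, 101, 102 and 100.3 normalised CPM (edgeR adjusted p = 0.171). The minus-end motor Kifc1, which bundles microtubules at spindle poles, had 74.4, 70.8, 72.5 and 68.7 against 68.3, 67.5, 63.9 and 69.6 (edgeR adjusted p = 0.0811). In both of these genes the groups overlapped, and with scaling by total counts only Kifc1 was called lower. Of the kinesins that ride on chromosome arms, Kif22 had 144, 141, 142 and 144 against 120.2, 127, 114 and 118 normalised CPM (log2 fold change -0.26, SE 0.03, edgeR adjusted p = 3.20e-07), without overlap. Kif4, the other one, had 115, 126, 131 and 131 against 119, 114, 115 and 113 (log2 fold change -0.12, SE 0.04, edgeR adjusted p = 0.00845), and control replicate 1 lay inside the osteoclast-conditioned range. Without control replicate 4, the edgeR adjusted p of Kif4 was 0.0508, and exons of Pdzd11 on the opposite strand cover 15.1% of its exon length.

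Of the 6 genes for spindle-associated proteins 5 fell. Hmmr, which focuses spindle poles, had 174, 193, 177 and 179 normalised CPM against 154, 159, 155 and 147 (log2 fold change -0.24, SE 0.03, edgeR adjusted p = 2.19e-06). Ckap2, a microtubule-stabilising protein, had 86.3, 86.4, 94.5 and 91.0 against 74.4, 80.7, 74.7 and 77.9 (log2 fold change -0.22, SE 0.04, edgeR adjusted p = 4.07e-05). Tpx2, the activator of Aurora A on the spindle, fell by 0.15 on the log2 scale, again without overlap (322 to 338 against 286 to 306 normalised CPM). The changes of Dlgap5 and Nusap1, both of which stabilise microtubules near chromosomes, were smaller (log2 fold change -0.10 and -0.09), and their groups overlapped. Dlgap5 had 150.0 to 164 against 144 to 151 normalised CPM, and its edgeR adjusted p was 0.0649 and 0.0508 without control replicates 3 and 4 and 0.0806 without osteoclast-conditioned replicate 1. Nusap1 had 175 to 185 against 165 to 176, and its edgeR adjusted p was 0.0665 and 0.0594 without control replicates 1 and 3, and 0.053, 0.133 and 0.0544 without osteoclast-conditioned replicates 1, 3 and 4. Aspm, a spindle pole protein, had 151, 164, 167 and 169.5 against 163, 159, 166 and 156 normalised CPM, a difference smaller than the spread between cultures (log2 fold change -0.01, SE 0.03, edgeR adjusted p = 0.776).

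In cytokinesis, 5 of the 6 tested genes fell. Kif20b, a kinesin of the midzone and of late cytokinesis, had 184, 176, 193 and 184 normalised CPM against 156, 157, 151 and 158 (log2 fold change -0.24, SE 0.03, edgeR adjusted p = 3.17e-07). Kif23, the kinesin of the centralspindlin complex, had 117, 113, 117 and 114 against 102, 98.6, 100.5 and 108 (log2 fold change -0.17, SE 0.03, edgeR adjusted p = 0.000153). No culture of one medium reached the range of the other for either gene. The partner of Kif23 in centralspindlin, Racgap1, did not pass the test, with 292, 294, 288 and 285 against 288, 277, 279 and 273 normalised CPM (log2 fold change -0.06, SE 0.03, edgeR adjusted p = 0.115). With scaling by total counts only it was called lower. Anln (anillin, the scaffold of the contractile ring) fell by 0.16, Ect2 (the activator of RhoA at the cleavage plane) by 0.14 and Kif20a (which carries the passenger complex to the midzone) by 0.13 on the log2 scale, all without overlap. Their ranges in normalised CPM were 136 to 144 against 123 to 127 for Anln, 159 to 181 against 147 to 155 for Ect2 and 109.6 to 113 against 99.6 to 104 for Kif20a. For Kif20a, 29.3% of the exon length lies over exons of Cdc23 on the opposite strand. Cdc23, an APC/C gene, was also called lower (log2 fold change -0.16, edgeR adjusted p = 0.00107), and whether both genes share reads was not tested.

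Prc1, which bundles the antiparallel microtubules of the midzone, had 0 counts in all 8 cultures and could not be tested. In GENCODE M21 its whole span (chromosome 7, 80294450 to 80316259) lies inside that of Rccd1 on the opposite strand (80293229 to 80324454). In a single culture, a count of 0 allows up to 0.138 to 0.194 normalised CPM by counting error alone. With 0 counts in all 8 cultures, the limit for their mean level is lower. How reads over both genes were assigned is not given in the sources used here. Of all members, 12 share exon bases with another listed gene. Besides the genes already given, the share was 12.7% for Cdc25c, 12.5% for Ccna2 and 11.1% for Prc1, and at most 4.48% for the others. A pseudogene named after the gene is annotated for each of Ccnb1, Ccnb2, Kif4 and Kif22, and how reads were split between such copies is not given in the sources used here.

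Neither of the 2 genes in the role group of mitotic chromosomes, Top2a and Mki67, passed the test. Top2a, the topoisomerase that untangles sister DNA, had 1131, 1210.3, 1174 and 1138 normalised CPM against 1142, 1146, 1136 and 1072 (log2 fold change -0.05, SE 0.03, edgeR adjusted p = 0.181). It passed the test with scaling by total counts only. Mki67, whose product Ki-67 coats mitotic chromosomes and marks cycling cells, had 1506, 1659, 1854 and 1792 against 1808, 1747, 1873 and 1788 (log2 fold change 0.08, SE 0.06, edgeR adjusted p = 0.377). Mki67 had the only positive value among the tested members and a wide spread in control medium, where replicate 1 was lowest and replicate 3 was above 3 of the 4 osteoclast-conditioned cultures. An interval of 2 SE on either side ran from -0.04 to 0.21.

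**Figure D4:**
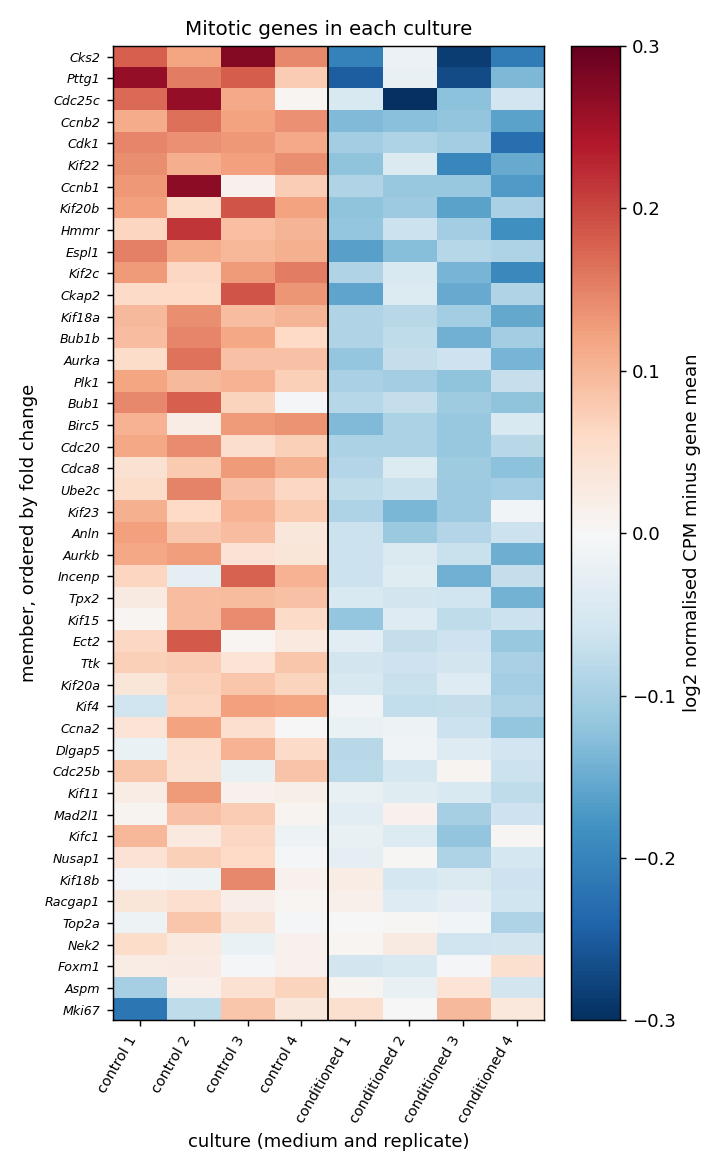
Log2 normalised CPM of the 45 tested members (rows, ordered by fold change) in each of the 8 cultures (columns) after subtracting the gene's mean over all cultures. Control columns are red and osteoclast-conditioned columns blue for most rows, and the lowest rows, down to Mki67, show no such split.

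Per length of exon, Mki67 and Top2a had the highest levels of all members. Mki67 stood at 169 ± 15.3 normalised CPM per kilobase of exon in control and 179 ± 5.22 in osteoclast-conditioned medium, and Top2a at 129 ± 4.04 and 125 ± 3.88 (SD, n = 4 each). They were followed in control medium by Cdc20 (112 ± 3.18), Ccnb2 (112 ± 1.78), Ccna2 (105 ± 3.68) and Plk1 (104 ± 1.39). Cdc20 and Ccnb2 differed in this order by less than the spread between cultures, as did Ccna2 and Plk1. At the low end were Pttg1 (8.80 ± 0.474), Kif18a (6.27 ± 0.0951) and Cdc25c (5.51 ± 0.413). The summed level of the 46 genes was 9879 to 10348 normalised CPM in control cultures and 9334 to 9556 in osteoclast-conditioned cultures. The ranges did not overlap. Culture by culture, the median difference of the members from the control mean was -0.02 to 0.01 in control medium and -0.17 to -0.14 in osteoclast-conditioned medium on the log2 scale.

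Counts for further lists of mitotic genes are read against the shares over all tested genes, 14.8% called lower and 15.7% higher. In a list of 31 further spindle, centrosome and abscission genes, 21 were called lower (67.7%) and 2 higher (6.45%), with a median log2 fold change of -0.14. It was led by Cep55, the organiser of abscission (85.8 ± 3.05 against 70.2 ± 2.22 normalised CPM, SD, n = 4 each, log2 fold change -0.29), Spag5 (astrin, -0.28) and Tacc3 (-0.28), both of which bind spindle microtubules. Among 17 subunits and regulators of the APC/C, 5 were called lower (29.4%) and 2 higher (11.8%), with a median of -0.06. The late activator Fzr1, or Cdh1, had a log2 fold change of -0.19, Anapc10 of -0.20 and Anapc11 of 0.18.

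Of 12 genes of MuvB, the DREAM complex and B-Myb, which are known to regulate such promoters, 2 were called lower (16.7%) and 1 higher (8.33%), with a median of -0.01. These shares are near or below those of all tested genes. Mybl2, which encodes B-Myb, had 141 ± 6.30 normalised CPM in control and 127 ± 1.49 in osteoclast-conditioned medium (SD, n = 4, log2 fold change -0.15, SE 0.03, edgeR adjusted p = 0.000432). Tfdp1 (-0.11) and Tfdp2 (0.15), both partners of E2F factors, moved in opposite directions. Of 8 condensin genes 3 were lower (37.5%) and 0 higher, with a median of -0.06, led by Ncapg (-0.20), Ncaph2 (-0.15) and Ncapd2 (-0.07). Of 14 cohesin genes and regulators 2 were lower (14.3%) and 3 higher (21.4%), with a median of -0.0045, again near the shares of all tested genes. Esco2, the acetyltransferase that locks cohesin on DNA in S phase, had a log2 fold change of -0.27, the cohesin loader Nipbl of 0.15 and Pds5a of 0.14.

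Of 11 genes of Wee1, Greatwall and the PP2A-B55 phosphatase, 3 were lower (27.3%) and 0 higher, with a median of -0.05. Wee1 and Pkmyt1 hold Cdk1 inactive and PP2A-B55 removes phosphates that Cdk1 places, while Greatwall, through its substrates Ensa and Arpp19, inhibits PP2A-B55. Pkmyt1 had a log2 fold change of -0.32 (SE 0.06, 41.8 ± 4.55 against 33.3 ± 1.47 normalised CPM, SD, n = 4 each, edgeR adjusted p = 0.000541), beside -0.28 for Cdc25c, which acts against it. The B55 subunit Ppp2r2a had -0.20 and Arpp19, a Greatwall substrate, -0.12. For S phase, 11 of 24 listed genes (45.8%) were lower and 0 higher, with a median of -0.08, and the largest changes were those of Rrm2 (-0.25), Gins1 (-0.24) and Prim1 (-0.22). The median of the S phase list lay between those of the mitotic members (-0.16) and of all tested genes (-0.0087), and the difference between the lists was not tested.

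**Figure D5:**
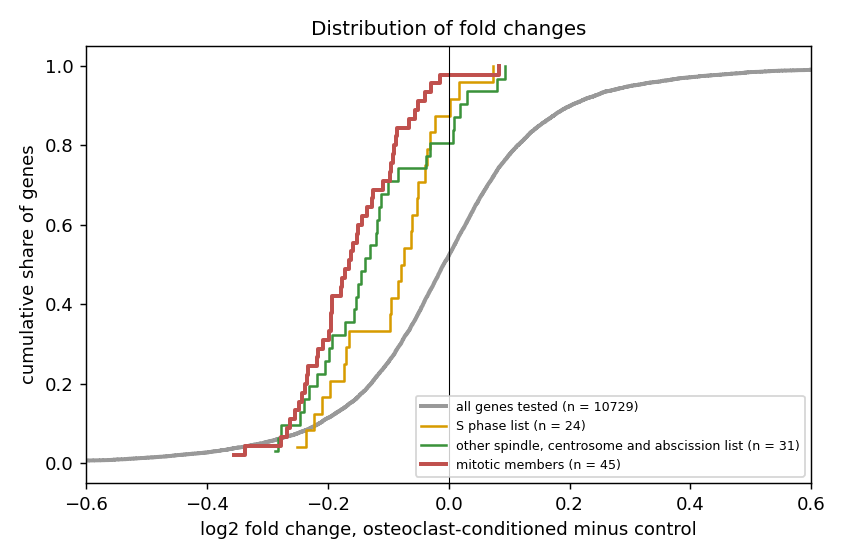
Cumulative share of genes (y axis) by log2 fold change (x axis, osteoclast-conditioned minus control) for the 45 tested mitotic members, 31 other spindle, centrosome and abscission genes, 24 S phase genes and all 10729 genes tested. The curve of the members lies left of that of all genes over most of its range, with medians of -0.16 and -0.0087.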

How the data were processed

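Raw counts for each Ensembl gene were deposited by the authors as 1 table. Per the submitters' processing notes, STAR 2.7.5a, featureCounts 2.0.1 and mm10 were used; the roles of these, the annotation and the use of strand are not given in the sources used here. Per the labels' protocols, total RNA came from RNeasy Plus columns and the library kit was SureSelect HS2. Columns were matched to cultures by the digit in the header, and groups came from the titles.

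Symbols, spans and exon lengths came from GENCODE M21 (GRCm38), which matched 21817 of 21859 IDs. Genes passing filterByExpr (10729) were TMM-scaled and tested in edgeR 4.0.16 (R 4.3.3; glmQLFit robust, glmQLFTest, medium as the only term), with p-values adjusted by Benjamini-Hochberg over all of them. The threshold was 0.05. The standard error is the absolute log2 change over the square root of F. Per-culture medians used log2 CPM with a prior count of 2. Members and lists were chosen with earlier results of these data known. The genes given culture by culture were the 2 called members of largest change per role group and every member not called or not tested; values for others were added after they were seen. Of each further list, up to 3 called genes with the largest change and a mean of at least 5 CPM were named.

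The fit was tested on simulated data. Alternatives were other scalings, filters and thresholds, DESeq2 1.42.0, limma-voom (limma 3.58.1), the replicate block and leaving out each culture. P-values rest on the spread between 4 cultures per medium.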

Additional observations from a re-analysis of the deposited data

Results flagged for a closer look

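For each of the 45 tested members, the highest and the lowest culture of each medium were compared with the other 3 cultures of that medium. In 7 of 90 groups of 4 cultures, the gap to the nearest culture exceeded 0.829 of the whole range (Dixon's 95% critical value); chance gives about 1 in 20 groups, here 4.5. Of the 7, 4 fell on osteoclast-conditioned replicate 4, which was lowest for Cdk1 (113 normalised CPM, others 123 to 124), Ttk (74 against 75.9 to 76.2), Tpx2 (286 against 303 to 306) and Top2a (1072 against 1136 to 1146). That culture also had the highest mitochondrial share of counts, 1.44%, and the part of this in its low values was not tested. In control medium, Kif11 was highest in replicate 2 (442 against 408 to 411), Kif18b highest in replicate 3 (116 against 104 to 106) and Tpx2 lowest in replicate 1 (322 against 336 to 338). With any single culture left out (8 fits), Cdk1, Ttk, Tpx2 and Kif11 were still called lower and Top2a and Kif18b were not called.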

How the results depend on the processing

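The number of members called lower stayed between 37 and 40 under 3 other scalings, 2 other filters, DESeq2 and limma-voom. Over all genes, those fits called from 1283 (the DESeq2 test) to 2012 (scaling by total counts only) lower, against 1584 in the main fit. At an adjusted p under 0.01, 32 members were lower. The number of members called lower was 0 where the null hypothesis was a change of at most 1.2-fold. That test called 66 of all genes lower and 161 higher. The estimates are the same there, and the null hypothesis and the p-values differ. The number of members called higher was 0 under every alternative run. Leaving out 1 culture gave from 33 to 36 members lower, with 1220 to 1732 of all genes lower in the same fits. In all 8 such fits, 32 members were called. The 5 that lost the call in at least 1 of them were Mad2l1, Nusap1, Cdc25b, Dlgap5 and Kif4. The median log2 fold change of the members ran from -0.17 to -0.16 in these fits and was -0.19 with scaling by total counts only, which shifted the median of all genes from -0.0087 to -0.03. At the stricter threshold of 0.01, which called 948 of all genes lower and 1199 higher, the calls of Cdc25b, Dlgap5, Kif11, Mad2l1 and Nusap1 were lost. Aspm, not called in any fit, ran from -0.045 (without control replicate 1) to 0.0089 (without control replicate 4) and was 0.0026 when osteoclast-conditioned replicate 4 was left out. Same-numbered cultures did not deviate together (correlations of deviations from -0.05 to 0.14, mean 0.04, against -0.01 for other pairs, and 3 of 8 cultures correlated best with their own number), so the replicate number was not taken as a pairing. With it as a replicate block, 37 members were lower, with a median of -0.17, and over all genes 1687 were lower and 1759 higher, against 1584 and 1689. Pttg1 and Cdc25c had the fewest counts of the tested members (2262 and 3575 over all cultures), with standard errors of 0.07 and 0.06; that of Mki67, which had the most counts, was also 0.06.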
